A study of Mus musculus with 2 samples.

Results

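The genes described here are 10 transcription factors of the primitive streak, T (also called Brachyury), Eomes, Mixl1, Mesp1, Mesp2, Tbx6, Lhx1, Sp8, Evx1 and Gsc. They were taken by symbol from the gene tables, and 10 of 10 were found among 32285 genes. They were measured in R1 mouse embryonic stem cells kept in N2B27 medium for 72 hours, by droplet single-cell RNA sequencing with 3′ chemistry. The LB culture received the self-renewal cytokine LIF together with BMP4, and its dish was coated with gelatin. The LBPXRS culture received LIF and BMP4 too, together with PD0325901 (a MEK inhibitor), Xav939 (a tankyrase inhibitor that lowers WNT signalling), SB431542 (an inhibitor of the NODAL and activin receptors) and a compound labelled Resorcyclic lactone, on fibronectin. The coating and the 4 added compounds came together, so their effects cannot be told apart.

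The primitive streak is the groove of the gastrulating embryo through which epiblast cells leave to become mesoderm and endoderm. WNT, NODAL, BMP and FGF signals induce it. T and Eomes are T-box factors at the head of its gene programme, Mixl1 is a homeobox factor of mesendoderm, and Mesp1 and Mesp2 are basic helix-loop-helix factors of the mesoderm that leaves it. In cultures of embryonic stem cells these genes are read as marks of entry into this programme. Alone, a UMI of one of them does not show that a cell has left the pluripotent state.

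Each condition had 1 library, which leaves no replicate error to test against, and p-values are therefore not given. The intervals are exact 95% Poisson intervals for counts and exact 95% binomial (Clopper-Pearson) intervals for shares, and they cover counting error only. LB held 1783 kept cells with a median of 25418 UMIs (unique molecular identifiers, 1 per captured RNA molecule), and LBPXRS held 2705 with a median of 19058. The stem cell genes Pou5f1, Sox2, Nanog, Zfp42 and Utf1 were all found in both, and Pou5f1 had a UMI in 94.3% of LB cells and 99.5% of LBPXRS cells. The libraries shared 8 cell barcodes among the kept cells. Y-linked genes gave 2872 UMIs in LB and 1 in LBPXRS, so the cultures also differed in that respect, and its part in the results below was not tested. Among thinned LB cells (described below), 29.7% (24.6 to 35.1) of those with T and 28.7% (26.3 to 31.1) of those without T held a Y-linked UMI.

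Promoter sequence was at hand for 9 of the 10 genes, all but Mixl1, from RefSeq on the GRCm38.p6 build, as 11 windows from 250 bases before to 50 bases after a transcription start. T and Eomes are shown as the T-box factors at the head of the programme, with different patterns below, and their upstream 250 bases are printed 5′ to 3′ on the strand of the gene. Both strands were searched for each motif. Capitals mark CTTTGA on either strand, the core letters bound by TCF/LEF, the factors through which WNT acts. The T stretch is chr17:8434173-8434422 and the Eomes stretch chr9:118477939-118478188, both on the plus strand.
T: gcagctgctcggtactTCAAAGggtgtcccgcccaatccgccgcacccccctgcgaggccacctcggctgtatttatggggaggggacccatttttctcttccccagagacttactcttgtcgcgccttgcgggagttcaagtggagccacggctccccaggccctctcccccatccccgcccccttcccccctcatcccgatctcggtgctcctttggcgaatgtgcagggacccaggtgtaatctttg
Eomes: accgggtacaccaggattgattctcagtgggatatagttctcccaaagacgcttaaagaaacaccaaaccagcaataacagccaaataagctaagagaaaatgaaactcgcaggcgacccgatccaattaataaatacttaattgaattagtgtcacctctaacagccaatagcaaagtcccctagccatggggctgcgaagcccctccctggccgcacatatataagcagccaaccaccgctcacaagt

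CTTTGA was found in the windows of 3 of the 9 genes. It began 234 bases before the start of T, 72 and 31 bases before the RefSeq start of Mesp1, and 50 bases before 1 of the starts of Sp8. For Mesp1 the annotations disagree on the start: both matches (chr7:79793657-79793662 and chr7:79793616-79793621, minus-strand gene) lie upstream of the RefSeq start but inside the first exon of the GENCODE gene model, in its untranslated part. Of all 32851 windows of this length, 5257 hold it. The T-box site GGTGTGA was found once, from base 6 after the RefSeq start of Mesp1, and 3.98% of all windows hold it. AATCCACA, the letters bound by FOXH1, a partner of NODAL signalling, was found once, from base 25 after the Mesp2 start, against 0.855% of all windows. Neither CTTTGT, another TCF/LEF form, nor CAGACAGA, a pair of SMAD boxes, was found in any of the 9 genes, and 18.7% and 2.53% of all windows hold them. These matches are descriptions of letters and not evidence of binding.

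Comparing the libraries asks how much of this programme was transcribed with and without the 4 added compounds. In LBPXRS, 7 of the 10 genes were at least 4-fold lower than in LB: T, Eomes, Mixl1, Mesp1, Lhx1, Sp8 and Evx1. Over all 13254 genes with a CPM (UMIs scaled to a library total of 1000000) of at least 1 in either library, 2.69% were at least 4-fold lower and 1.61% at least 4-fold higher. None of the 10 was at least 4-fold higher, and 9 had the higher CPM in LB. Gsc went the other way. Differences are log2((LBPXRS CPM + 1)/(LB CPM + 1)), which understates the change of low genes. The median was -3.05 over the 10 genes and -0.14 over all genes tested, and it stayed at -3.05 with Evx1 set at its bound. Since 7 of the 10 passed the CPM minimum through LB only, and 3 in both libraries, those 7 could pass the 4-fold line in 1 direction only.

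T, required for posterior mesoderm and the notochord, lies at chr17:8434423-8442496 on the plus strand (GRCm38). It gave 4589 UMIs in LB and 3 in LBPXRS, or 101 CPM (98.0 to 104) and 0.0579 CPM (0.0119 to 0.169). That is a log2 difference of -6.59, and the LB level was 1743 times the other (596 to 8455), with a wide interval set by the 3 UMIs. Eomes, which specifies definitive endoderm and early cardiac mesoderm and is also a trophoblast gene, lies at chr9:118478212-118486132. It gave 579 UMIs in LB and 69 in LBPXRS, or 12.7 CPM (11.7 to 13.8) and 1.33 CPM (1.04 to 1.68), a log2 difference of -2.56. The 2 intervals of each gene were far apart. Tbx6, a T-box factor of presomitic mesoderm at chr7:126781483-126785560, was low in both, with 56 and 22 UMIs, and its LB level was 2.90 times the other (1.74 to 4.99), short of 4-fold.

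Mesp1, a factor of nascent and cardiac mesoderm, and Mesp2, its neighbour and a regulator of somite boundaries, lie at chr7:79792241-79793788 and chr7:79810727-79813439. Mesp1 gave 1623 UMIs in LB and 28 in LBPXRS, 35.7 and 0.540 CPM, with a log2 difference of -4.57. Mesp2 gave 232 and 61 UMIs, 5.10 and 1.18 CPM, and its log2 difference of -1.49 fell short of the 4-fold line, although the ratio of CPM without a pseudocount was 4.33 (3.26 to 5.84). With a pseudocount of 0.1 in place of 1, 8 of the 10 genes and 6.22% of all genes were at least 4-fold lower. The neighbouring pair thus differed in the size of the difference.

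Among the homeobox and zinc finger factors, Mixl1 (chr1:180693043-180697034) gave 822 and 15 UMIs, 18.1 and 0.289 CPM, and a log2 difference of -3.89. Lhx1, a LIM homeobox factor of the anterior streak and later mesoderm (chr11:84518284-84525535), gave 512 and 3 UMIs, 11.3 and 0.0579 CPM, and a log2 difference of -3.53. Chromosome 11 as a whole was lower in LBPXRS, with a median of -0.65 over 465 genes at a mean CPM of at least 20 against -0.16 over all chromosomes at that level; its part in the Lhx1 difference was not tested. Sp8, a zinc finger factor that follows WNT and FGF signals (chr12:118846329-118852576), gave 243 and 4 UMIs, 5.34 and 0.0772 CPM, and a log2 difference of -2.56. Evx1, a homeobox factor of the posterior streak (chr6:52313498-52318378), gave 519 UMIs and 11.4 CPM in LB with no UMI in the other library; set against a floor of 3 counts over that library it was at least 197-fold lower, and by the exact limits of both counts at least 159.7-fold. The overlapping antisense gene Evx1os gave 281 UMIs in LB and 0 in LBPXRS. Gm33460, antisense to Eomes, gave 22 and 12, and how the counting treated strand is not given in the sources used here.

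Gsc, a homeobox factor of the organizer and anterior streak at chr12:104471209-104473330, gave 260 UMIs in LB and 702 in LBPXRS, 5.72 CPM (5.04 to 6.45) and 13.5 CPM (12.6 to 14.6). It was 2.37 times higher in LBPXRS (2.05 to 2.74), a log2 difference of 1.11, under the 4-fold line. It was not confined to a few LBPXRS cells: 529 of 2705 had at least 1 UMI (19.6%, against 8.36% of LB cells) and the most in 1 cell was 7. Its level ranged from 5.86 CPM (4.58 to 7.37) in LBPXRS cluster 2, led by Gata2, to 19.3 CPM (17.1 to 21.7) in cluster 1, led by Krt8 and Krt18. The LBPXRS clusters were given no cell type names.

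**Figure D1:**
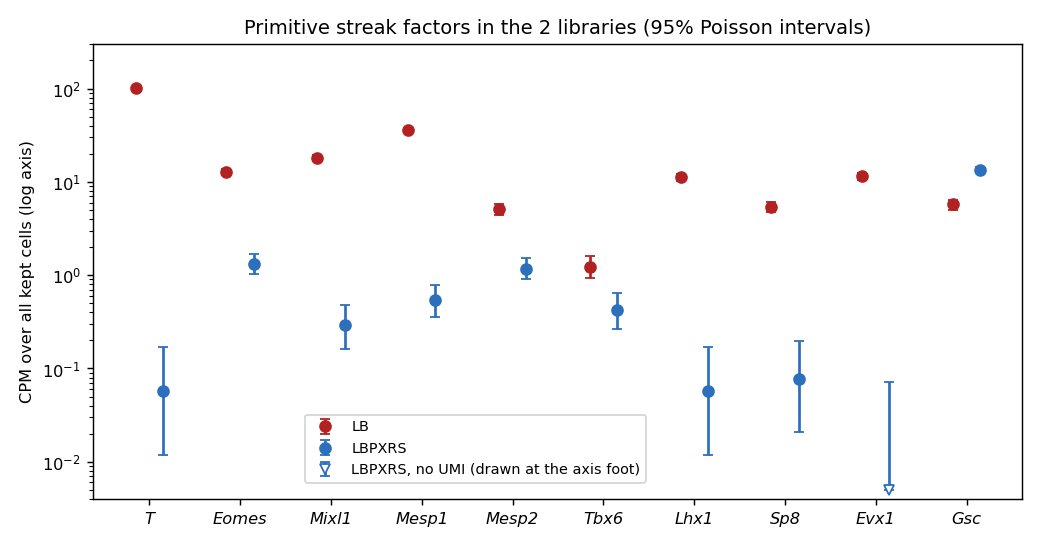
CPM of each gene over all kept cells of LB (red) and LBPXRS (blue), on a log axis, 1 library each; bars are exact 95% Poisson intervals, and the open triangle marks 0 UMIs of Evx1. LB points lie above LBPXRS points for 9 genes, and Gsc is the exception with 5.72 CPM in LB and 13.5 CPM in LBPXRS.

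Apart from those of Gsc, the LBPXRS UMIs of these genes were spread 1 or 2 to a cell. Of T, Mixl1, Mesp1, Tbx6, Lhx1 and Sp8 no LBPXRS cell held more than 1 UMI, and of Eomes and Mesp2 none held more than 2. In LB the most in 1 cell was 60 UMIs for T, 52 for Mesp1 and for Mixl1, 25 for Lhx1, 15 for Eomes and for Mesp2, 6 for Sp8 and 3 for Tbx6, so the last 2 were spread thinly in LB as well. The 53 LB cells richest in T, of 530 with a UMI, held 36.5% of its UMIs. After thinning each cell to 5000 UMIs, which left 1733 LB and 2621 LBPXRS cells, T was found in 310 LB cells (17.9%, 16.1 to 19.8) and in 1 LBPXRS cell (0.0382%, 0.000966 to 0.212). Without thinning the T shares were 29.7% and 0.111%.

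Free RNA from other cells can give UMIs in cells that do not express a gene, so shares were set beside those in the naive pluripotent-like LB cells described below, a type known for low levels of streak genes. They were 818 cells with a median of 26503.5 UMIs, of which 805 could be thinned. T was found in 1.37% of them (0.684 to 2.43), Eomes in 1.86% (1.05 to 3.05), Mixl1 in 0.248%, Mesp1 in 0.621% and Mesp2 in 0.621%. The LBPXRS shares of Eomes (0.725%), Mixl1 (0.191%), Mesp1 (0.267%) and Mesp2 (0.572%) were at or below those values, so no expression is read from them. The LBPXRS share of Gsc, 6.64% (5.72 to 7.66), was above its 1.37% in naive-like LB cells. The naive-like level was 2.72% of the LB average for T, 2.57% for Mixl1, 2.61% for Mesp1, 24.1% (18.6 to 30.7) for Eomes, 25.5% (16.95 to 36.9) for Mesp2 and 39.8% for Gsc. For Tbx6 it was 37.8% (18.1 to 69.4), from 10 UMIs. The naive-like cells are thus not shown to lack Eomes, Mesp2, Tbx6 or Gsc. The level of free RNA in LBPXRS itself was not measured.

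Against the naive-like LB cells alone, none of the 10 genes was at least 4-fold lower in LBPXRS on the scale with a pseudocount of 1, 4 passed the CPM minimum, and 1.23% of all genes were at least 4-fold lower. Gsc was then at least 4-fold higher, with an LBPXRS level 5.95 times theirs (4.45 to 8.12). The T level of LBPXRS was 0.0211 times theirs (0.00423 to 0.0648), the Eomes level 0.434 times (0.305 to 0.618) and the Mesp2 level 0.904 times (0.569 to 1.47). Evx1 had 10 UMIs in the naive-like cells and 0 in LBPXRS, a ratio of at most 0.185. The counts of T, Evx1 and, by less than 4-fold, Eomes were thus lower in LBPXRS than in naive-like LB cells too, at levels where the pseudocount shrinks the ratio, and lower expression and less free RNA cannot be told apart here, while the intervals of Mixl1, Mesp1, Mesp2, Tbx6, Lhx1 and Sp8 included equal levels. In bulk sums, fewer cells with a gene and less RNA per cell cannot be told apart.

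The clusters of LB cells were made without the 10 genes and named from markers of each cell type. Clusters 1, 5 and 6 were naive pluripotent-like (621, 140 and 57 cells, raised Klf2 and Tfcp2l1), and cluster 4 was formative or primed pluripotent-like (277 cells, raised Fgf5, Pou3f1 and Dnmt3b). Cluster 3 was primitive streak-like (282 cells), with 7 of 12 streak markers raised, among them Wnt3, Fgf8, Sp5 and Cdx1. The interferon-response genes Isg15, Rtp4 and Ifi27l2a were among its 10 leading genes. Cluster 2 was lateral and extraembryonic mesoderm-like (325 cells, led by Prdm6, Foxf1 and Hand1). Clusters 7 and 8 were trophoblast-like (45 and 19 cells) and cluster 9 (17 cells) had no name. Cells of 1 library are not replicates.

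T was highest in the streak-like cluster, at 538 CPM (520 to 556), where 199 of its 310 thinned positive cells lay and 72.1% of cells (66.4 to 77.3) held a T UMI. It was 99.0 CPM in formative-like cells, 33.4 CPM in mesoderm-like cells and 2.45 CPM in naive-like cluster 1. Sp8 was also highest in the streak-like cluster, with 26.7 CPM (22.8 to 31.0) and 70.0% of its UMIs there, against 5.09 CPM in formative-like and 2.59 CPM in mesoderm-like cells. At this resolution T and Sp8 shared their highest cluster.

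Mesp1 was highest in mesoderm-like cells, at 148 CPM (139 to 156), and stood at 56.3 CPM (50.6 to 62.4) in streak-like and 4.44 CPM in formative-like cells. Mixl1 (66.4, 35.1 and 5.48 CPM), Lhx1 (43.5, 22.6 and 1.04 CPM) and Mesp2 (18.6, 6.43 and 1.04 CPM) gave the same order over those 3 clusters, with intervals apart between mesoderm-like and streak-like cells. Evx1 was more even, at 30.6 CPM (26.9 to 34.6), 22.1 CPM (18.6 to 26.1) and 12.9 CPM (10.5 to 15.7). Tbx6 was higher in the streak-like cluster, 3.76 CPM (2.41 to 5.60) against 2.10 CPM (1.22 to 3.36) in mesoderm-like cells, with intervals that overlap.

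At this resolution Eomes was low in the streak-like cluster. It was 43.9 CPM (39.4 to 48.7) in mesoderm-like cells and 14.2 CPM (11.7 to 17.2) in formative-like cells, but 4.70 CPM (3.17 to 6.72) in the streak-like cells richest in T, near the 2.91 CPM (2.17 to 3.83) of naive-like cluster 1. Gsc resembled it in part, with 17.7 CPM (14.97 to 20.9) in mesoderm-like and 5.17 CPM (3.56 to 7.27) in streak-like cells. In trophoblast-like cluster 7 Eomes was 3.26 CPM (1.06 to 7.60), and in trophoblast-like cluster 8, of 19 cells, it rested on 1 UMI (7.13 CPM, 0.181 to 39.7). In the 17 cells of cluster 9 it was 85.3 CPM (44.1 to 149) with no T UMI.

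**Figure D2:**
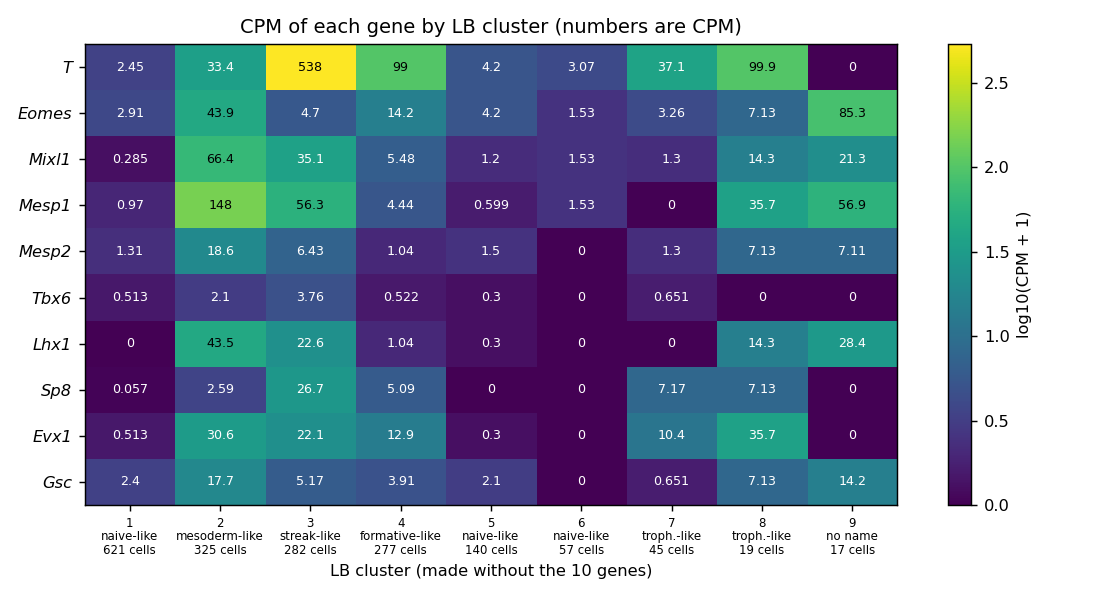
CPM of each gene (rows) in the 9 LB clusters (columns, with the number of cells), colour on a log10(CPM + 1) scale and CPM printed in each field; mesoderm-like stands for lateral and extraembryonic mesoderm-like and troph.-like for trophoblast-like. T peaks in cluster 3 with 538 CPM, where Eomes is at 4.70 CPM, and Mesp1 peaks in cluster 2 among the named clusters with 148 CPM. At the finer resolution described below, the streak-like cluster of 117 cells has 12.8 CPM of Eomes (9.07 to 17.6).

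At a finer resolution 2 clusters were mesoderm-like, one of 135 cells led by Kdr, Vstm2b, Gata4 and Gata6 and one of 164 cells led by Pitx1, Hoxb6 and Hoxc8. The cluster of 135 cells had 8 of 12 mesoderm markers raised, without Hand1, Foxf1 and Bmp4. It also had the streak markers Wnt3, Sp5, Cyp26a1 and Snai1 raised, so its name does not set it apart from streak-stage cells. The first had the higher levels: Mesp1 was 302 CPM against 26.0, Eomes 103 against 4.44, Mixl1 130 against 11.1, Lhx1 105 against 1.11 and T 64.0 against 10.4. Evx1 did not follow, with 30.4 CPM (24.5 to 37.2) and 25.3 CPM, and was highest in the streak-like cluster of this resolution at 46.2 CPM (38.8 to 54.6), so its order between mesoderm-like and streak-like cells depended on the resolution. For Mesp1, Mixl1, Lhx1 and Mesp2 the streak-like cluster lay between the 2 mesoderm-like ones. Lhx1 was 41.8 CPM there, and Mesp2 17.2 CPM against 40.2 in the cluster of 135 cells and 0.666 in that of 164. Their order thus depended on the mesoderm-like cluster. High T was found in 3 clusters. One of 117 cells was streak-like and had 587 CPM of T with 135 CPM of Mesp1 and 97.1 CPM of Mixl1. Its Eomes level was 12.8 CPM (9.07 to 17.6), below the 103 CPM of the mesoderm-like cluster of 135 cells. How low Eomes was in streak-like cells thus depended on the resolution. One of 83 cells was germ cell-like, with Prdm1, Nanos3, Dnd1 and Ifitm1 raised, and had 547 CPM of T but 0 Eomes UMIs and 1.69 CPM of Mixl1. One of 105 cells, led by Ndrg1, Igfbp3 and Ddit4, had no name and 351 CPM of T. T is known in germ cell precursors as well as in the streak, and its level here did not separate the streak-like from the germ cell-like cluster, whereas Mixl1 did. Sp8 was highest in the germ cell-like cluster, at 37.3 CPM (28.8 to 47.4) against 23.3 CPM (18.1 to 29.4) in the streak-like one, with intervals that overlap. The T intervals of these clusters (513 to 582 and 560 to 616) overlap too. Whether T and Sp8 shared their highest cluster at this resolution is therefore not shown.

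Co-expression was counted over thinned LB cells for the 9 genes found in at least 20 of them, all but Tbx6 (15 cells). Of 1733 cells, 548 (31.6%) held at least 1 of the genes, 221 held at least 2 and 108 at least 3, and 1 cell or more held 7. For each of 36 pairs, the share of cells with the partner was compared between cells with and without the first gene. It was higher in cells with the gene in 26 pairs, with intervals that do not overlap, lower in 0, and had overlapping intervals in 10. No such count was made for other gene pairs, so the 26 have no background share beside them. Of the 1733 cells, 805 were naive-like, with T in 11, Mesp1 in 5 and Mixl1 in 2. Genes that are both rare in these cells can meet in the others, and the part of this in the 26 was not tested. Cells with 2 or more of the genes had a median of 22580 UMIs before thinning, cells with 1 had 23972 and cells with none 26885, and 4 of the 221 were marked as doublets.

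The highest share of these pairs was that of Mesp1 in cells with Mesp2: 27 of 37 cells with Mesp2 (73.0%, 55.9 to 86.2) also held Mesp1, against 6.72% (5.58 to 8.02) of cells without Mesp2. Mesp1 was also in 40 of 70 cells with Lhx1 (57.1%, 44.7 to 68.9) against 6.07%. Sp8 went with T, which was in 28 of 46 cells with Sp8 (60.9%, 45.4 to 74.9) against 16.7% of the rest. Of cells with Mesp1, 44.0% (35.6 to 52.6) held T, against 15.6% (13.8 to 17.5) of cells without it.

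The pair T and Eomes depended on depth. At 5000 UMIs, T was in 17 of 95 cells with Eomes (17.9%, 10.8 to 27.1) and in 17.9% (16.1 to 19.8) of cells without Eomes. With cells thinned to 10000 UMIs the shares were 29.4% (22.6 to 37.1) and 24.0% (21.9 to 26.3), which overlap. Without thinning they were 38.5% (32.5 to 44.8) and 28.2% (26.0 to 30.6), which lie apart, though cells then differ in depth. The cells thinned to 5000 UMIs included 805 naive-like cells, with T in 11 and Eomes in 15. Shares without naive-like cells were not taken. The equal shares therefore do not show that T and Eomes are unrelated in the other cells. Eomes and Gsc went together at each depth. At 5000 UMIs 19 of 52 cells with Gsc (36.5%, 23.6 to 51.0) held Eomes, against 4.52% (3.58 to 5.63). Gsc was found without preference for T (19.2%, 9.63 to 32.5, against 17.8%), and with Sp8 in 0 of 46 cells, where the exact upper limit is 7.71% and the share of cells without Sp8 was 3.08%, so an avoidance was not detectable at this depth.

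Shared clusters can make genes go together, so the shares were also read within clusters. In mesoderm-like cells, 29 of 44 cells with T held Mesp1 (65.9%, 50.1 to 79.5) against 24.3% (19.3 to 29.8) of the others, while Eomes was in 15.9% of cells with T and 16.9% of the others. In the same cluster Mesp1 was in 22 of 23 cells with Mesp2 (95.7%, 78.1 to 99.9), and Eomes was in 18 of 41 cells with Lhx1 (43.9%, 28.5 to 60.3) against 12.7%. In streak-like cells Mesp1 was in 33 of 199 cells with T (16.6%, 11.7 to 22.5) and 3.90% (0.811 to 10.97) of those without, and Eomes was in only 5 of 276 cells. The pairing of T with Mesp1 was thus also present inside each of these clusters, which are themselves mixed. At the finer resolution the mesoderm-like clusters of 135 and 164 cells held T in 20.7% and 5.63% of cells. Mesp1 was in 53.3% and 8.13%. Pairs were not read inside the finer clusters, so the part of this mixing in the within-cluster shares was not tested. Gsc and Eomes also went together in mesoderm-like cells, where Eomes was in 13 of 26 cells with Gsc (29.9% to 70.1%) and 13.8% of the others. Some pairs that went together over all LB cells did not do so within a cluster. In streak-like cells Sp8 was in 12.1% (7.88 to 17.4) of cells with T and 14.3% (7.35 to 24.1) of those without. In mesoderm-like cells Mixl1 was in 13.6% of cells with T and 13.6% of those without, and in 13.7% of cells with Mesp1 and 13.6% of those without.

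**Figure D3:**
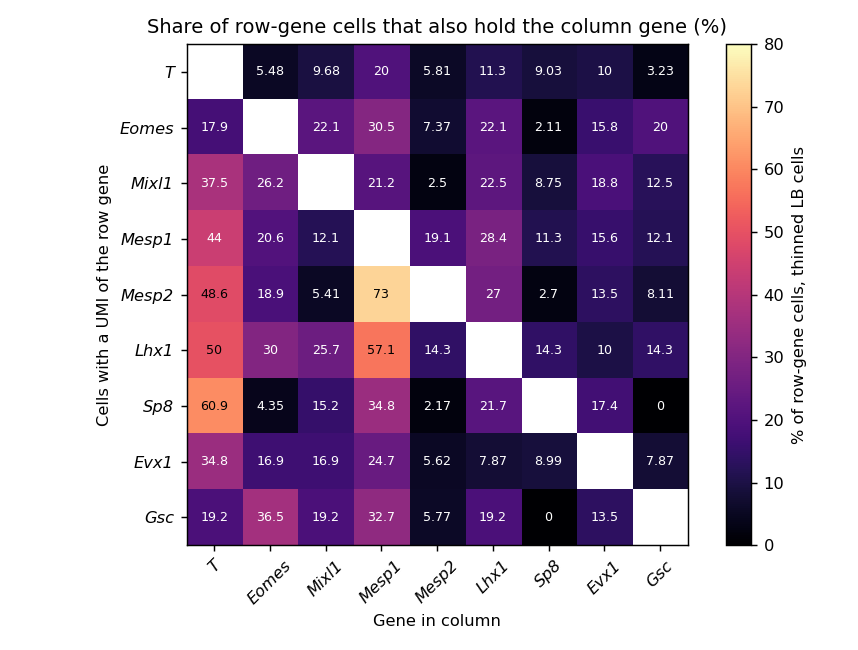
Percent of thinned LB cells with a UMI of the row gene that also hold a UMI of the column gene, for 9 genes. The largest share is Mesp1 in cells with Mesp2 (73.0%), T is in 60.9% of cells with Sp8 and in 17.9% of cells with Eomes, and Sp8 and Gsc share 0 cells.

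The order of onset was read from an ordering of LB cells by diffusion pseudotime, from the cell with the highest naive marker score and computed without the 10 genes and the streak markers. All cells were taken at 72 hours, so a position is not a time, and the line does not separate branches. The 1783 cells fell into 10 bins of 178 or 179. Bins 1 to 4 held naive-like cells, bin 6 mainly formative-like cells (173 of 178), bins 7 and 8 mainly streak-like cells, and bins 9 and 10 mainly mesoderm-like cells. Klf4, a naive pluripotency factor, went from 81.0 CPM in bin 1 to 2.66 CPM in bin 6, Fgf5, a formative gene, was highest in bin 6 at 27.2 CPM, and Hand1, a mesoderm gene, reached 457 CPM in bin 10.

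Onset was taken as the first bin with at least 50% of the CPM of a gene's highest bin. T, Sp8 and Evx1 came first, in bin 7, Mixl1, Mesp2 and Tbx6 in bin 8, and Mesp1, Lhx1, Eomes and Gsc in bin 9. The split between bins 8 and 9 depended on the setting and is not read as an order. On the first principal component these 7 genes all started in bin 8, with 20 bins Mesp1 started at 8, and on the naive score Eomes (bin 7) came before Mixl1 (bin 8). T was 25.5 CPM in bin 5, 90.7 in bin 6, 392 (373 to 412) in bin 7, 506 (484 to 529) in bin 8, 74.9 in bin 9 and 16.1 in bin 10, a narrow peak in this ordering. Mesp1 was 11.2 CPM in bin 7, 89.5 in bin 8, 204 (190 to 218) in bin 9 and 68.8 in bin 10. In this ordering T was thus past its peak in the bin where Mesp1 was highest. On the naive score T was at or above 50% of its highest bin from bin 5 to bin 9, and Mesp1 from bin 8 to bin 10. At the finer resolution the germ cell-like cluster held 21.1% of T UMIs and the unnamed cluster of 105 cells 16.8%. No ordering left these cells out, so the order was not read for streak-like cells alone.

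Sp8 followed the T profile, with 15.7 CPM in bin 7, 28.1 in bin 8 and 6.65 in bin 9. Evx1 began at 14.1 CPM in bin 6 and stayed, at 23.3, 20.2, 30.8 and 27.8 CPM in bins 7 to 10. Mixl1 also stayed, at 65.6 CPM in bin 9 and 57.7 in bin 10, whereas Lhx1 went from 65.8 to 17.7 CPM and Mesp2 from 26.1 to 4.32 CPM. Tbx6 was highest in bin 9 at 4.44 CPM (15 thinned cells in all), so its place rests on few UMIs.

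Eomes had 2 maxima. It was 17.8 CPM (14.3 to 21.98) in bin 6, 5.58 CPM (3.50 to 8.45) in bin 7, 6.41 CPM (4.19 to 9.40) in bin 8 and 47.8 CPM (41.3 to 55.0) in bin 9. The first maximum coincided with Fgf5, before the T peak, and the second with Mesp1, after it. With 25% of the highest bin in place of 50%, the onsets of Eomes and Evx1 moved to bin 6 and that of T stayed in bin 7. With 20 bins, Evx1 also came before T, at 6 against 6.5 in units of the 10 bins, so the order of these 2 genes depended on the rule. Gsc was 4.71 CPM in bin 6, 3.80 in bin 7, 5.67 in bin 8 and 19.2 (15.2 to 24.0) in bin 9, without a first maximum beyond counting error.

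Over cells with a UMI, the median position (in percent of the ordering) was 71.2 for T, 73.6 for Sp8, 80.2 for Mesp2, 80.3 for Evx1 and for Gsc, 80.6 for Tbx6, 81.7 for Lhx1, 82.3 for Mixl1, 82.8 for Mesp1 and 83.4 for Eomes. The quartiles were 64.6 and 77.6 for T, 77.9 and 87.4 for Mesp1, and 56.6 and 89.7 for Eomes, the wide range of the last covering both maxima. The other 9 genes had a median after that of T in 5 of 5 alternative orderings, by as little as 0.617 for Sp8 and 1.35 for Gsc. The medians from Mesp2 to Eomes lay close together, with overlapping quartile ranges, and are not ranked here.

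**Figure D4:**
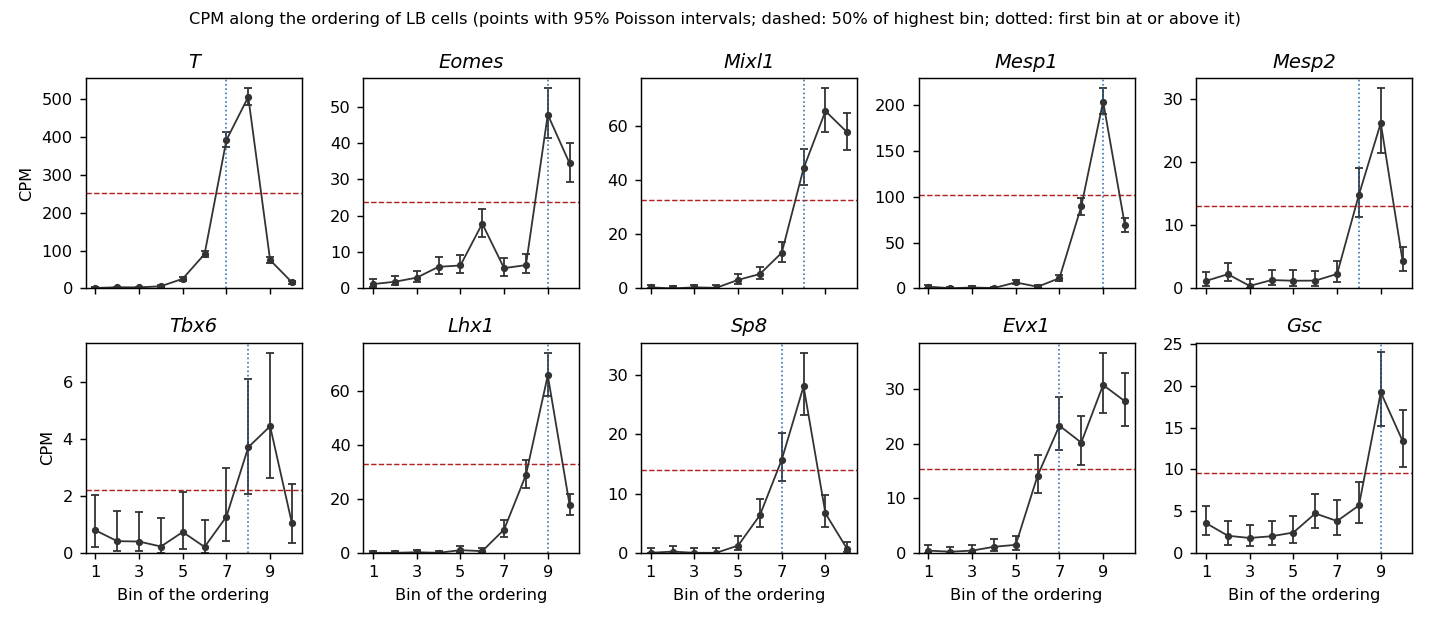
CPM of each gene in 10 bins of the ordering of LB cells (178 or 179 cells a bin); points have exact 95% Poisson intervals, the dashed line is 50% of the highest bin and the dotted line the first bin at or above it. T peaks in bin 8 at 506 CPM, Mesp1 in bin 9 at 204 CPM, and Eomes shows a maximum of 17.8 CPM in bin 6 before its highest value of 47.8 CPM in bin 9.

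Cells with T alone, with T and Mesp1, and with Mesp1 alone differed in genes that did not define them. The 248 cells with T and no Mesp1 had a median position of 69.0, the 62 with both 79.9, and the 79 with Mesp1 and no T 85.3. Hand1 was 44.98 CPM (39.8 to 50.6), 205 CPM (181 to 232) and 259 CPM (236 to 283) over these 3 classes. Lhx1 was 14.2, 87.3 and 104 CPM, and Kdr, a receptor of early haemato-endothelial and cardiac mesoderm, was 1.13, 1.57 and 17.7 CPM (12.1 to 25.02). Fgf8, the streak ligand, was highest with both, at 556 CPM (516 to 599), against 367 and 244 CPM.

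Cells with Eomes and no T (78 cells) differed from cells with T and no Eomes (293 cells) in some genes and not in others. The Eomes cells had quartile positions of 55.5 and 90.8, a range from formative-like to mesoderm-like bins. Gsc was 42.7 CPM (34.0 to 53.0) against 5.12 CPM (3.59 to 7.09), Mixl1 109 CPM (95.1 to 125) against 40.2 CPM (35.7 to 45.2), and Gata6 23.4 CPM (17.1 to 31.4) against 2.42 CPM (1.41 to 3.87). Fgf8 went the other way, at 161 CPM (144 to 180) and 409 CPM (394 to 424). The intervals overlapped for Hand1 (80.7 and 72.2 CPM), Evx1 (26.6 and 27.3 CPM) and Nodal (15.6 and 16.9 CPM). The 17 cells with both had 21.5 CPM of Gsc (9.82 to 40.8) from 9 UMIs, an interval that overlaps that of the Eomes cells without T.

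The genes most like each of 9 of the 10, all but Tbx6 with its 56 LB UMIs against a minimum of 100, were taken as those with the highest Pearson r across the 1733 thinned LB cells, among 8623 genes found in at least 50 cells. The cells share 1 library and were all thinned to the same depth, so r is a description. For T they were Isg15 (0.53), Psmb8 (0.53), Fgf8 (0.50), Igfbp3 (0.44) and Sprr2a3 (0.43), of which Isg15 and Psmb8 are interferon-response genes. For Mesp1 they were Cyp26a1 (0.35), Lhx1 (0.34), Fn1 (0.32), Rspo3 (0.32) and Cited1 (0.29), and for Mesp2 the first was Mesp1 (0.38). For Eomes they were Gsc (0.26), Vstm2b (0.26), Mesp1 (0.25), Mixl1 (0.23) and Gas1 (0.22), and for Gsc the first was Eomes (0.26). Vstm2b (0.36) and Etv2 (0.28) led for Mixl1, Chst7 (0.23) for Sp8 and Msx1 (0.21) for Evx1. The values of Eomes, Gsc, Sp8 and Evx1 are weak and rest on sparse counts.

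The surrounding pathway was read from gene lists, beside 2.69% lower and 1.61% higher among all genes. Many list genes passed the CPM minimum through LB only, and these could be called in 1 direction only: 5 of 9 streak signals, 4 of 6 secreted inhibitors, 8 of 10 WNT and T targets and 6 of 11 mesoderm genes. Of 9 streak signals, 3 were at least 4-fold lower in LBPXRS, namely Fgf8 (113 to 0.733 CPM, log2 difference -6.04), Bmp4 (-5.06) and Wnt3 (30.2 to 0.675 CPM, -4.22). Wnt8a, with 77 LB UMIs and none in the other library, was at least 29.2-fold lower by the floor of 3 counts, although its log2 difference with the pseudocount was -1.43. Fgf4 was higher, at 39.5 CPM in LB and 205 CPM in LBPXRS (2.35), and Nodal stood at 18.6 and 12.2 CPM (-0.57). Of 6 secreted inhibitors tested, Lefty1 (-5.85) and Lefty2 (-5.87), both targets of NODAL signalling, were at least 4-fold lower. The list medians were -0.97 and -1.84, against -0.14 over all genes.

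Of 10 WNT and T targets tested, 7 were at least 4-fold lower and 0 higher: Rspo3 (-4.89), Sp5 (-4.11), Lef1 (-3.78), Axin2 (-3.49), Cyp26a1 (-3.12), Snai1 (-2.31) and Nkx1-2 (-2.29), with a list median of -2.72. Of 11 mesoderm genes tested, 4 were lower, with a median of -1.40. Hand1, with 3824 UMIs in LB and none in the other library, was at least 1452-fold lower by the same floor, and Msx1 (-4.12), Msx2 (-3.35) and Foxf1 (-2.93) were the others. Of 9 axial mesoderm and endoderm genes, 6 were below the CPM minimum and none of the other 3 passed the 4-fold line, a number too small to set against the share over all genes. The endoderm genes Foxa2 and Sox17 were under 1 CPM in both libraries. Of 14 other T-box genes, 10 were below the minimum and none of the other 4 passed the line. Tbx3, a naive pluripotency factor in these cells, was 22.8 CPM in LB and 91.7 CPM in LBPXRS (1.96), opposite to T and Eomes.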

How the data were processed

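Library preparation used the 10x 3′ v2 kit, per the labels' protocols. The deposited matrices hold UMI counts per gene and barcode made by the authors with Cell Ranger 4.0.0 on mm10, per the submitters' processing notes; the annotation and strand setting are not given in the sources used here. Barcodes with at least 1000 genes and at most 10% mitochondrial UMIs were kept, which left out 225 of 2008 LB and 406 of 3111 LBPXRS barcodes. Scrublet in scanpy 1.11.5 marked 18 LB cells (1.01%) and 10 LBPXRS cells (0.370%) as doublets, so few that it may have missed some; they were kept. UMIs were summed over cells and scaled to CPM. Shares of cells were taken after thinning every cell to 5000 UMIs, leaving out 50 LB and 84 LBPXRS cells.

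Clusters came from 2000 variable genes without the 10 genes, 30 principal components, 15 neighbours and Leiden resolution 0.5. A name needed at least 3 markers raised at least 2-fold at a CPM of at least 5, more than any other class, no more markers of another class among the 10 leading genes, and a median log2 difference of at least 0.5 over the class's markers. The naming thresholds were chosen with the clusters in view, and the last one was raised from 0 to 0.5, which took the name trophoblast-like from LBPXRS cluster 1 (30.8% of its cells) and the name primitive streak-like from an LB cluster of 105 cells at resolution 1. Genes were located in GENCODE on GRCm38. The statistics were tested on simulated data.

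The members and gene lists were chosen with earlier results of these data known. Named genes were the 10 genes, genes of the lists, and the 5 most correlated genes of each; marker and leading genes of clusters are also named. Alternatives covered pseudocounts, TMM scaling (edgeR 4.0.16), cell filters, doublets, thinning, resolution, orderings and bins.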

Additional observations from a re-analysis of the deposited data

Results flagged for a closer look

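Barcodes left out by the cell filter entered only the alternative with all deposited barcodes, and several of the 10 genes had more than the floor of 3 counts there. In the 225 left-out LB barcodes, which held 740013 UMIs, T gave 20 UMIs, Eomes 21, Mixl1 5, Mesp1 8, Mesp2 7 and Lhx1 7. As levels, T was 27.0 CPM (16.5 to 41.7) there against 101 CPM in kept LB cells, and Eomes was 28.4 CPM (17.6 to 43.4) against 12.7 CPM. In the 406 left-out LBPXRS barcodes, Gsc gave 13 UMIs, 17.8 CPM (9.50 to 30.5) against 13.5 CPM in kept cells, and T gave 0.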

How the results depend on the processing

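The count of genes at least 4-fold lower was 7, and 6 to 8 under the other pseudocount, scalings, filters and CPM minimums. TMM scaling moved the median of all genes from -0.14 to -0.00164 and left the count at 7. Against naive-like LB cells it was 0 at both resolutions (the second added after seeing the data), where the log2 differences of Lhx1 (0.0156 and 0.0126) and Sp8 (0.0417 and 0.0387) changed sign. At 10000 UMIs and without thinning, T was in 29.4% and 38.5% of cells with Eomes and in 82.9% and 83.3% of cells with Sp8, and without thinning in 57.9% of cells with Mesp1. At resolution 1 the highest cluster levels were 587 CPM (T), 103 CPM (Eomes) and 302 CPM (Mesp1). The onset of Mesp1 came 2 bins after that of T, and 3 with the naive score ordering, 1 with the first principal component, 1.5 with 20 bins and 1 with 25% of the highest bin. No paired analysis was possible because each condition had 1 library, and none could be left out. Differences between cultures are not covered by any interval, and levels near 1 UMI per library cannot be compared.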
